A study of Mus musculus with 7 samples.

Results

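The Hox genes are the homeobox transcription factors of the 4 Hox clusters, and the family was taken as every protein-coding gene whose symbol is Hoxa, Hoxb, Hoxc or Hoxd followed by digits only. This gave 39 genes of the 56748 listed in the count files, 11 in HoxA, 10 in HoxB, 9 in HoxC and 9 in HoxD. The rule reads symbols and no measured value. Their RNA was measured in muscle stem cells (MuSCs) from the hind limb muscles of adult mice, which were sorted with magnetic beads as CD31-, CD45-, Sca1- and integrin α7+ cells and which the growth protocol of the labels then keeps in myoblast growth medium. The time in culture before RNA extraction was not stated in the sources used here. WT cells gave 3 libraries and cells homozygous for *Jag2sm* gave 4, each made as a direct cDNA library and read as long Nanopore reads. *Jag2sm* is a hypomorphic missense allele of the NOTCH ligand gene *Jag2* that arose naturally and is carried in every cell of these mice, the cells around the MuSCs included, while the sample labels write the genotype as *Jag2*-/-. No agent was given to either group, and the sex and exact age of the mice were not stated in the sources used here. Nothing states that each library came from a separate animal, so every p-value measures the spread between these libraries. In bulk RNA of this kind, fewer cells that express a gene and less RNA per cell cannot be told apart.

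Hox proteins bind DNA together with cofactors of the PBX and MEIS families and give cells their position along the body axis. Within a cluster the genes lie in the order of the body regions in which they act, from the anterior paralogs at the 3′ end to the posterior paralogs at the 5′ end, and the posterior genes of HoxA, HoxC and HoxD also pattern the limb. Adult muscle cells keep a Hox code of the body region they came from, so the code of MuSCs is known to differ between muscles of the head, trunk and limbs.

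On GRCm39 the 4 clusters lay at chr6:52132570-52237822 (HoxA), chr11:96085106-96259082 (HoxB), chr15:102829538-102945278 (HoxC) and chr2:74498654-74595486 (HoxD). Sequences before an annotated start of 3 members are shown, *Hoxc4* as the Hox gene called between genotypes, *Hoxc9* as a HoxC gene with a NOTCH effector motif, and *Hoxa10* as the Hox gene with the highest mean level. They were read from the GRCm39 genome up to annotated starts, without exon bases of the gene itself. For *Hoxc4* this is the outermost start, at chr15:102927116-102927365 on the plus strand, since the bases before its other start lie in an exon of the longer transcript. *Hoxc9* is at chr15:102884558-102884807 on the plus strand, and *Hoxa10* at chr6:52211940-52212169 on the minus strand. Both stretches lie before the canonical start but inside the annotated span of the gene, whose outermost start is further upstream. Capitals mark, on either strand, the CCAAT box, the letters TATAAA of a TATA box, and GTGGGAA, the core of sites of RBPJ, the DNA-binding effector of NOTCH.
Hoxc4: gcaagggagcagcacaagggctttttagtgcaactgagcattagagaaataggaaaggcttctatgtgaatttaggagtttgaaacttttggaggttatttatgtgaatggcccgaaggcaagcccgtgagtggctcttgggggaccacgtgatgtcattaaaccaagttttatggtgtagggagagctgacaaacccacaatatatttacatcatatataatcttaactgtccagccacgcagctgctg
Hoxc9: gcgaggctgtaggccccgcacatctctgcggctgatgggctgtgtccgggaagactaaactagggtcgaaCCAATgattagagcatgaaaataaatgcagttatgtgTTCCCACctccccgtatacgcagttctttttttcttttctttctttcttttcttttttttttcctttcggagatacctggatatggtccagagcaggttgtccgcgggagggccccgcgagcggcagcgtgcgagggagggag
Hoxa10: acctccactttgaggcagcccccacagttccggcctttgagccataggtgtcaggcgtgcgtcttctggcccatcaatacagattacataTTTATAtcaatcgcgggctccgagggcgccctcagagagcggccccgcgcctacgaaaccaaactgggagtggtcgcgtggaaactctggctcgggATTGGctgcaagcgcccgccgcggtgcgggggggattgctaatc

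None of these letters was present in the *Hoxc4* stretch, and GTGGGAA was present in that of *Hoxc9*, starting 143 bases before its start. In windows of 300 bases around the canonical start, from 250 before to 50 after it, GTGGGAA was found in 2 of the 39 Hox promoters (5.13%), *Hoxc9* and *Hoxc13*, and in 6.35% of 21757 promoters of protein-coding genes. CCAAT was found in 69.2% of the Hox windows and in 39.9% of all windows. The window of *Hoxc4*, which lies around its other start, held CCAAT. The letters TGATNNAT, a form of the joint HOX and PBX site, were found in 11 Hox windows (28.2%), among them *Hoxa7* and *Hoxc11*, and in 7.64% of all windows. The letters TATAAA were in 17.9% of Hox and 13.2% of all windows, and the E-box CANNTG, bound by the MyoD family and not marked above, in 66.7% and 70.6%. The printed *Hoxc4* stretch held 3 E-boxes. Both strands were searched, and matches of different motifs may share bases. A match describes the letters only, and no binding was measured here.

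Gene counts per library ranged from 187834 to 1937581, and the 39 Hox genes took 48 to 692 of them, or 0.0236% to 0.0413%. The depth was lowest in WT replicate 1, where 1 read is worth 5.76 CPM (counts per 1000000 of library size, scaled by edgeR's TMM method), against 0.493 to 1.41 CPM in the other libraries. In *Jag2sm* replicates 1, 2 and 4, between 46.0% and 50.8% of all reads did not align, against 2.44% to 3.24% in the WT libraries and *Jag2sm* replicate 3. *Jag2* itself was at 80.7, 114 and 116 CPM in WT and at 42.4, 78.8, 71.9 and 77.4 CPM in *Jag2sm* libraries, without overlap, but its call did not pass in edgeR (log2 fold change -0.64 ± 0.24 SE, adjusted p = 0.166). A missense allele leaves the RNA in place, so this level does not check the genotype. Of the defining markers of other cells, *Lum*, *Dpt*, *Kdr*, *Ptprc*, *Adgre1* and *Lyz2* had 0 counts in every library. *Pecam1*, the gene of CD31, had 2 counts in WT and 16 in *Jag2sm* libraries, and *Pdgfra* had 1 and 7. Both were higher in CPM without overlap. *Ly6a*, the gene of Sca1, had 6 and 43 counts and *Cd34* 31 and 88, with overlap but higher mean CPM in *Jag2sm* libraries. The means of *Dcn*, *Pi16*, *Col15a1*, *Tek* and *Cldn5* went the other way. Only *Cd34* of these was tested, and it was not called. Myoblast genes were present in every library, and all 7 tested differentiated muscle genes of 8 listed fell in *Jag2sm* MuSCs (6 with the replicate block, under which *Mymx* had an edgeR adjusted p of 0.0675), with a summed level of 13380 to 24050 CPM in WT and 491 to 3459 CPM in *Jag2sm* libraries. Over all tested genes 4.84% were called lower in edgeR. The myoblast list of 8 genes summed to 3346 to 5839 CPM in WT and 2165 to 2633 CPM in *Jag2sm* libraries, and of these *Des* was called, as lower, but not with the replicate block (edgeR adjusted p = 0.0597). Without *Des* the myoblast sum was 1239 to 1610 CPM in WT and 1253 to 1638 CPM in *Jag2sm* libraries, so the genotypes overlapped. Of the 8 genes 4 had positive log2 fold changes, and *Pax7*, at 28.8 to 95.7 CPM in WT and 100.4 to 172 CPM in *Jag2sm* libraries, did not overlap but was not called (log2 fold change 0.80 ± 0.31, edgeR adjusted p = 0.174). Among all tested genes 10.3% were higher without overlap, like *Pax7*, and 12.2% lower, like *Jag2*. The tenocyte list (115 to 128 CPM in WT, 30.1 to 76.6 CPM in *Jag2sm*) held the called gene *Scx* and the mural list (32.2 to 86.5 CPM and 31 to 646 CPM) the called gene *Abcc9*, both lower. The mural marker *Rgs5* went the other way, at 11.5 to 14.2 CPM in WT and 25.3 to 645 CPM in *Jag2sm* libraries, without overlap and not called (log2 fold change 3.73 ± 1.32, edgeR adjusted p = 0.135). The fibro-adipogenic, endothelial, immune and glial lists summed to at most 27.1, 11.5, 1.9 and 8.54 CPM in WT and 45.6, 17, 4.89 and 9.90 CPM in *Jag2sm* libraries. The part of these markers in the Hox differences was not tested.

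Counts were found for 35 of the 39 Hox genes, 30 of them in WT and 34 in *Jag2sm* libraries. *Hoxb1*, *Hoxd1*, *Hoxd10* and *Hoxd13* had 0 counts in all libraries, which at 3 counts of the pooled depth limits them to 1.08 CPM in WT and 0.555 CPM in *Jag2sm* MuSCs, for counting error only. Another 11 genes had fewer than 10 counts over the 7 libraries. These were *Hoxa2*, *Hoxb8* and *Hoxd4* with 6 counts each, *Hoxa13* with 5, *Hoxb9* with 4, *Hoxb5* and *Hoxd3* with 2, and *Hoxb13*, *Hoxc12*, *Hoxd11* and *Hoxd12* with 1. The genes of paralog group 13 were thus at or near 0 in HoxA and HoxD, where they pattern the hand and foot, and in HoxB. *Hoxc13*, known for its role in hair, had 9 counts in WT and 6 in *Jag2sm* libraries.

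**Figure D1:**
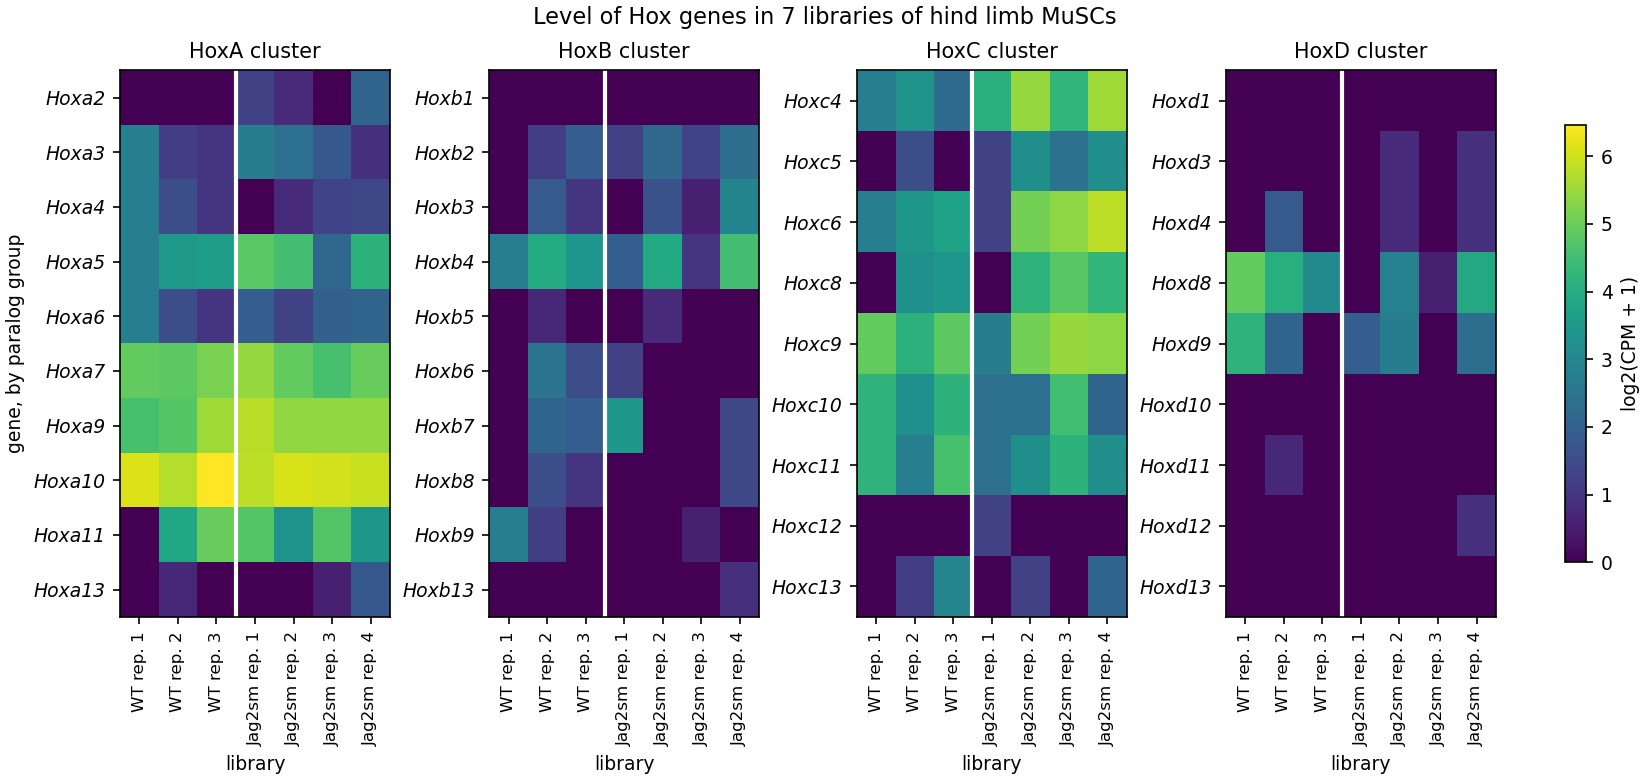
Level of the Hox genes named in the text (rows, by cluster and paralog group) in each of the 7 libraries (columns, WT left of the white line), as log2(CPM + 1) in colour. *Hoxa10* is the brightest row, and *Hoxb1*, *Hoxd1*, *Hoxd10* and *Hoxd13* are at 0 in all libraries.

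Levels were compared between genes as CPM per kilobase of exon. *Hoxa10*, a posterior paralog at work in the proximal limb and known from hind limb MuSCs, had the highest mean of the Hox genes in both genotypes, at 21.1 ± 5.19 (SD, n = 3) in WT and 18.6 ± 1.5 (SD, n = 4) in *Jag2sm* MuSCs. *Hoxa7* was at 10.6 ± 1.37 in WT and 10.8 ± 2.81 in *Jag2sm* MuSCs, and *Hoxc9* at 8.78 ± 2.37 and 11.0 ± 6.13 CPM per kilobase. The WT order went on with *Hoxc11* (7.57 ± 4.28), *Hoxc10* (6.96 ± 2.48) and *Hoxa11* (6.32 ± 6.57 CPM per kilobase), all genes of the posterior trunk and the limb. From *Hoxa7* down to *Hoxc4*, neighbours in the WT order differed by less than the larger of their SDs. *Hoxc6* held rank 11 in WT and rank 2 in *Jag2sm* MuSCs (3.67 ± 1.31 and 12.9 ± 9.01 CPM per kilobase), and *Hoxc4* rank 14 and rank 3 (2.42 ± 1.03 and 11.8 ± 6.11). *Hoxd8* held rank 7 in WT and rank 16 in *Jag2sm* MuSCs (5.88 ± 3.65 and 1.75 ± 2.19). Ranks 2 to 5 in *Jag2sm* MuSCs (*Hoxc6*, *Hoxc4*, *Hoxc9* and *Hoxa7*) did not differ beyond their SD. The gap between *Hoxa10* and *Hoxc6* was also smaller than the SD of *Hoxc6*, which lay above *Hoxa10* in *Jag2sm* replicate 4 (22 and 18 CPM per kilobase). These ranks depend on the division by length. *Hoxa9*, with 5580 annotated exon bases, held rank 8 in WT and rank 7 in *Jag2sm* MuSCs. Without the division *Hoxa9* was at 44.5 ± 6.13 CPM in *Jag2sm* MuSCs, above *Hoxc6* (32.65 ± 22.7) and *Hoxc4* (30.4 ± 15.7). *Hoxa10* stayed the highest, at 69.8 CPM in WT and 61.3 CPM in *Jag2sm* MuSCs.

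Summed over clusters, HoxA took the most Hox counts in the pooled libraries of each genotype, with 471 of 803 in the pooled WT libraries (58.7%) and 957 of 1907 in the pooled *Jag2sm* libraries (50.2%). Without *Jag2sm* replicate 1, where HoxA had 153 of 190 counts, its pooled share was 46.8% and that of HoxC 45.8%, and in *Jag2sm* replicates 3 and 4 HoxC had more counts than HoxA (347 and 337, 223 and 212). Over all libraries HoxC took 213 counts in WT (26.5%) and 810 in *Jag2sm* libraries (42.5%), HoxB 69 (8.59%) and 93 (4.88%), and HoxD 50 (6.23%) and 47 (2.46%). The HoxC sum was at 74.9, 61.4 and 99.6 CPM in WT replicates 1 to 3 and at 33.9, 149, 171 and 182 CPM in *Jag2sm* replicates 1 to 4. Replicates 2, 3 and 4 of *Jag2sm* thus lay above every WT library and replicate 1 below every WT library. The mean HoxC sum was 78.6 ± 19.3 CPM in WT and 134 ± 68.1 CPM in *Jag2sm* MuSCs, a log2 ratio of 0.77. Within batches 1, 2 and 3 the log2 ratio was -1.14, 1.28 and 0.78, and without *Jag2sm* replicate 1 the log2 ratio of the means was 1.10. In *Jag2sm* replicate 1 the mural marker *Rgs5* stood at 645 CPM, against 25.3 to 40.4 CPM in the other 3 *Jag2sm* libraries. The rest of the mural list did not share this, with 0 counts of *Pdgfrb*, *Kcnj8* and *Abcc9* and 1 of *Cspg4* in that library. The part of *Rgs5* in the low HoxC level was not tested.

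The HoxA sum was at 144, 139 and 219 CPM in WT and at 216, 176, 166 and 173 CPM in *Jag2sm* libraries, so the genotypes overlapped and the means lay within 1 SD (167 ± 44.8 and 183 ± 22.7 CPM). The HoxB sum was at 11.5, 30.4 and 19.0 CPM in WT and at 15.5, 20.7, 3.45 and 36.7 CPM in *Jag2sm* libraries. The HoxD sum was at 46.1, 22 and 7.59 CPM in WT and at 2.83, 13.1, 0.493 and 20.4 CPM in *Jag2sm* libraries. Both overlapped between genotypes. Replicate 3 of *Jag2sm* had the lowest HoxB and HoxD sums of the 7 libraries, with 7 and 1 counts. Over the 30 Hox genes outside HoxC, the mean sum was 213 ± 28.8 CPM in WT and 211 ± 29.5 CPM in *Jag2sm* MuSCs. By paralog group over all clusters, the posterior genes (9 to 13) took most counts, with 182 ± 53.4 CPM in WT and 178 ± 25.9 CPM in *Jag2sm* MuSCs. The central genes (5 to 8) were at 81.1 ± 5.64 and 114 ± 27.1 CPM, with a gap of under 1 CPM between the highest WT library and the lowest *Jag2sm* library, and the anterior genes (1 to 4) at 28.3 ± 6.97 and 53.8 ± 30.9 CPM.

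**Figure D2:**
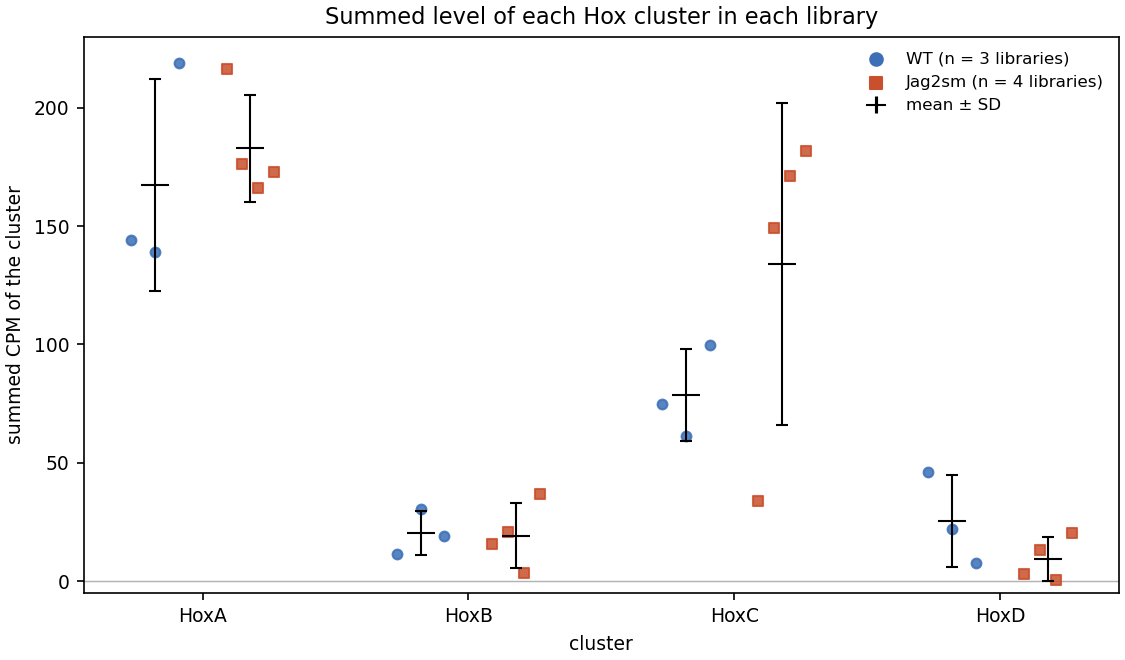
Summed CPM of each Hox cluster in each library (circles, 3 WT; squares, 4 *Jag2sm*), with the mean and SD. For HoxC, 3 *Jag2sm* libraries sit at 149 to 182 CPM and 1 at 33.9 CPM, and the WT libraries at 61.4 to 99.6 CPM.

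Of the 39 Hox genes, 13 had enough counts to be tested with edgeR across 9489 genes, and at an adjusted p under 0.05 1 of them, *Hoxc4*, was called, as higher in *Jag2sm* MuSCs. Over all tested genes 6.26% were called, 1.42% as higher and 4.84% as lower. No tested Hox gene was called lower, and at an unadjusted p under 0.05 there were 2, *Hoxc4* and *Hoxc6*, or 15.4% of the 13 beside 19.7% of all tested genes. A gene passes the filter through its counts in either genotype, so the 13 do not stand for the 39. *Hoxc4* passed it through the *Jag2sm* libraries, where it is high, so 1 call among 13 is not read against these shares. Their median log2 fold change was -0.02, beside 0.05 over all tested genes, and 6 of the 13 were positive, beside 54.0% of all tested genes. Scaled by library size alone, these medians were 0.14 and 0.21, so no direction was read for the family.

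**Figure D3:**
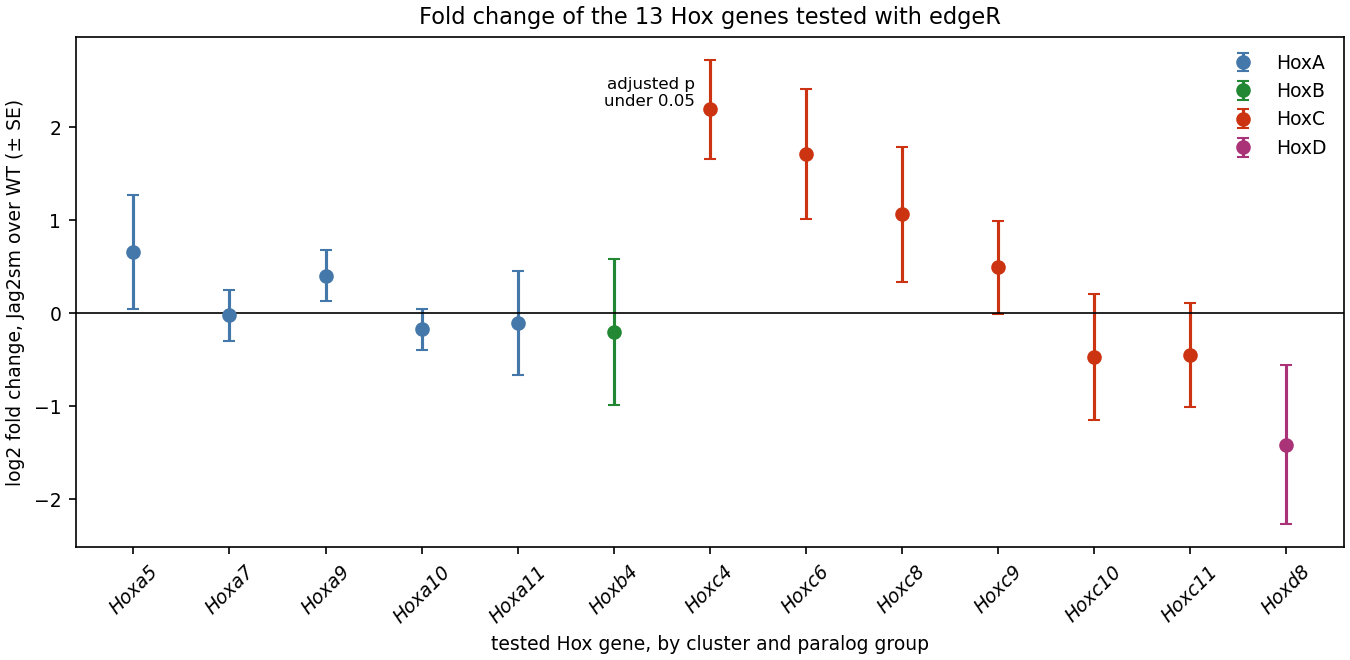
Log2 fold change (*Jag2sm* over WT) with its SE for the 13 tested Hox genes, ordered by cluster and paralog group. Only *Hoxc4* is past an adjusted p of 0.05, *Hoxc6* and *Hoxc8* are above 1, and the signs of *Hoxa7* and *Hoxa11* turn when the libraries are scaled by size alone.

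*Hoxc4* (ENSMUSG00000075394.5, chr15:102927366-102945278, plus strand), the anterior end of HoxC and a gene of the neck and forelimb level, rose in *Jag2sm* MuSCs. It was at 5.76, 9.05 and 3.79 CPM in WT replicates 1 to 3 (1, 14 and 4 counts) and at 15.6, 42.1, 18.2 and 45.7 CPM in *Jag2sm* replicates 1 to 4 (11, 61, 37 and 56 counts). Every *Jag2sm* library lay above every WT library, as was the case for 10.3% of all tested genes, while 12.2% were lower without overlap. The value of WT replicate 1 rests on 1 count, and 3 counts there would be 17.3 CPM, above *Jag2sm* replicate 1. The log2 fold change was 2.19 ± 0.53 (SE) with an adjusted p of 0.0346 in edgeR, and the exact permutation test gave p = 0.0286, two-sided, the smallest value that 3 against 4 libraries allow. Within batches 1, 2 and 3, which the labels number like the replicates, the log2 difference was 1.21, 2.03 and 1.86, and batch 4 holds a *Jag2sm* library only. Its exons share no base with another listed gene. *Jag2sm* replicate 3, whose share of unaligned reads was like that of WT, stood at 18.2 CPM. The call was lost with limma-voom (adjusted p = 0.0925) and without WT replicate 1, 2 or 3 or *Jag2sm* replicate 2 or 4, with adjusted p-values from 0.0650 to 0.182, while the log2 fold change stayed between 1.83 and 2.87.

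*Hoxc6* (chr15:102906689-102920315, plus strand), a gene of the thoracic level, was at 5.76, 9.70 and 12.3 CPM in WT and at 1.41, 33.9, 39.9 and 55.4 CPM in *Jag2sm* libraries. As in the cluster sum, *Jag2sm* replicates 2 to 4 lay above every WT library and replicate 1, with 1 count, below them. The log2 fold change was 1.71 ± 0.70 and did not pass (edgeR adjusted p = 0.199). Within batches 1, 2 and 3 the log2 difference was -1.26, 1.64 and 1.57. Without *Jag2sm* replicate 1 it was 2.04, with an adjusted p of 0.0162, and without both libraries of batch 1 it was 1.97 with an adjusted p of 0.0176, while *Hoxc4* then had an adjusted p of 0.0531. With no filter on low counts, *Hoxc6* was also called (adjusted p = 0.000247).

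*Hoxc5*, which lies between these genes and shares 5.37% of its exon bases with *Hoxc10*, had too few reads to be tested, with 0, 3 and 0 counts in WT and 1, 12, 9 and 10 counts in *Jag2sm* libraries. Pooled by genotype these 3 and 32 counts give a log2 ratio of 2.45, with a 95% interval (exact binomial) of 0.78 to 4.80 that covers counting error only. *Hoxc8* (chr15:102898851-102902543), a gene of the lower thoracic level, was at 0, 8.40 and 9.48 CPM in WT and at 0, 17.3, 26.6 and 17.9 CPM in *Jag2sm* libraries. The 0 counts in WT replicate 1 and *Jag2sm* replicate 1 allow up to 17.3 and 4.24 CPM. Its log2 fold change of 1.06 ± 0.73 did not pass (edgeR adjusted p = 0.466). The genotypes of *Hoxc5*, *Hoxc6* and *Hoxc8* overlapped through *Jag2sm* replicate 1.

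The posterior HoxC genes showed smaller differences. *Hoxc9* (chr15:102884117-102893531) was at 28.8, 16.8 and 27.5 CPM in WT and at 5.66, 33.9, 42.9 and 39.9 CPM in *Jag2sm* libraries, with a log2 fold change of 0.49 ± 0.50. *Hoxc10*, a gene of the lumbar level and the hind limb, was at 17.3, 8.40 and 17.1 CPM in WT and at 4.24, 4.15, 21.7 and 3.26 CPM in *Jag2sm* libraries. Replicate 3 of *Jag2sm* was the highest of all libraries for *Hoxc10* and the other 3 *Jag2sm* libraries the lowest, and the log2 fold change was -0.47 ± 0.68. *Hoxc11*, a gene of the same region, was at 17.3, 5.82 and 22.8 CPM in WT and at 4.24, 8.29, 17.2 and 8.15 CPM in *Jag2sm* libraries, with a log2 fold change of -0.45 ± 0.56. None of these 3 passed in edgeR (adjusted p = 0.644, 0.763 and 0.715). *Hoxc13* had 0, 2 and 7 counts in WT and 0, 2, 0 and 4 counts in *Jag2sm* libraries and was not tested.

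**Figure D4:**
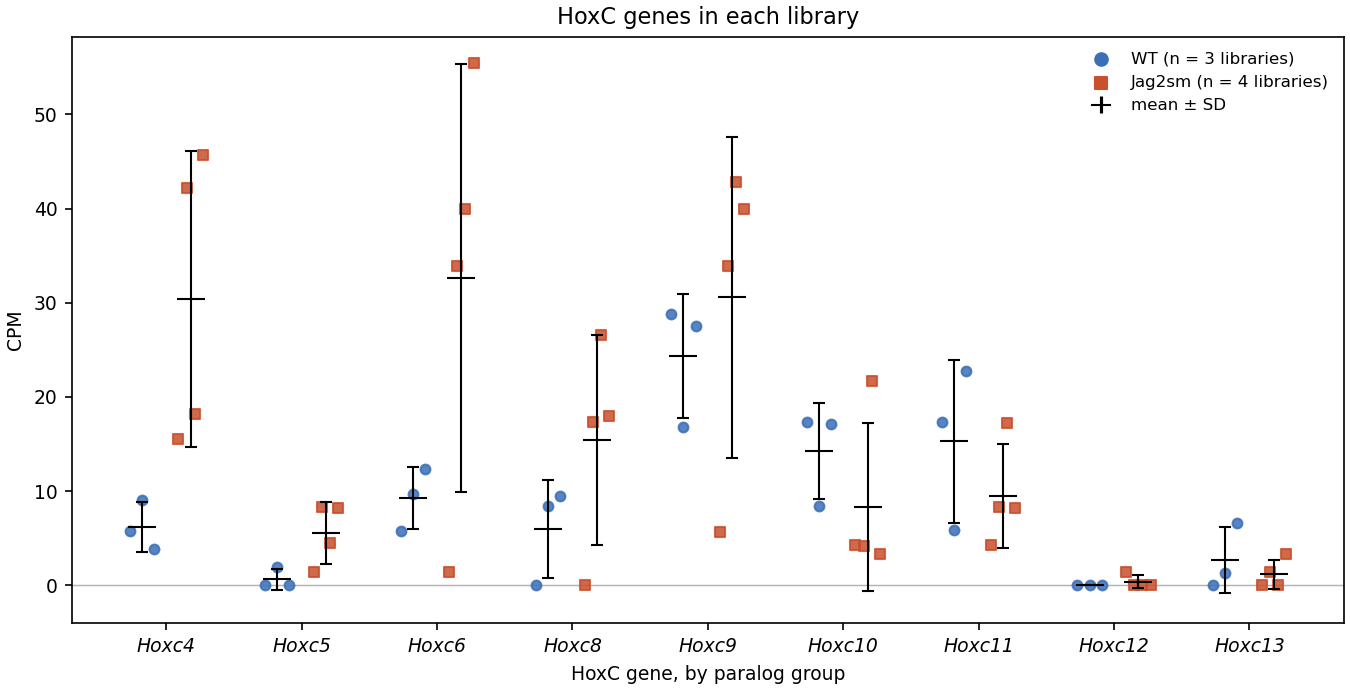
CPM of each HoxC gene in each library (circles, 3 WT; squares, 4 *Jag2sm*), with the mean and SD. The *Hoxc4* values of the genotypes do not overlap, and the lowest square of *Hoxc6*, *Hoxc8* and *Hoxc9* is *Jag2sm* replicate 1.

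The fitted log2 fold changes thus decreased along the cluster from 2.19 for *Hoxc4* over 1.71, 1.06 and 0.49 to -0.47 for *Hoxc10* and -0.45 for *Hoxc11*, as a description over 6 genes of the same libraries that was not tested. Within batches 1 and 2 the log2 differences did not keep this order. In batch 1 *Hoxc6* was at -1.26, *Hoxc8*, without counts in either library, at 0.000, *Hoxc9* at -2.05 and *Hoxc10* and *Hoxc11* at -1.675. In batch 2 *Hoxc9* (0.942) lay above *Hoxc8* (0.909) and *Hoxc11* (0.410) above *Hoxc10* (-0.788). In batch 3 the differences fell in order from 1.86 for *Hoxc4* to -0.368 for *Hoxc11*. Shares within the cluster need no scaling between libraries. They come from the same counts, and a split at *Hoxc9* cannot show an order along 6 genes. *Hoxc4*, *Hoxc5*, *Hoxc6* and *Hoxc8* took 2 of 13, 45 of 95 and 27 of 105 HoxC counts in WT replicates 1 to 3, or 15.4% (95% exact binomial interval 1.92% to 45.5%), 47.4% (37.0% to 57.9%) and 25.7% (17.7% to 35.2%). In *Jag2sm* replicates 1 to 4 they took 13 of 24, 147 of 216, 181 of 347 and 156 of 223, or 54.2% (32.8% to 74.5%), 68.1% (61.4% to 74.2%), 52.2% (46.8% to 57.5%) and 70.0% (63.5% to 75.9%). The shares did not overlap between genotypes, although the intervals of WT replicate 2 and *Jag2sm* replicates 1 and 3 did. In *Jag2sm* replicate 1, 11 of the 13 counts were *Hoxc4*, and without *Hoxc4* the genotypes overlapped, at 8.33%, 38.3% and 22.8% in WT and 15.4%, 55.5%, 46.5% and 59.9% in *Jag2sm* libraries. In HoxA the share of the genes anterior to *Hoxa9* was 31.5% ± 5.39 (SD, n = 3) in WT and 31.7% ± 7.52 (SD, n = 4) in *Jag2sm* MuSCs.

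**Figure D5:**
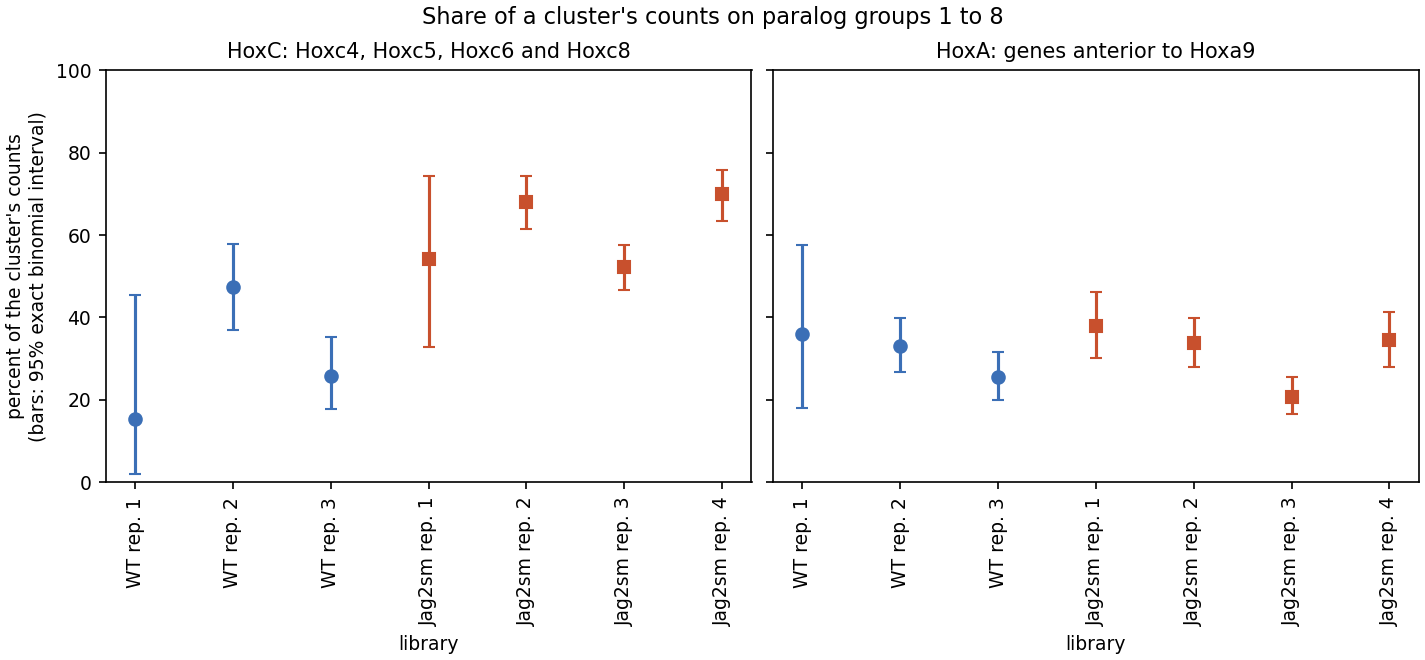
Percent of a cluster's counts that fell on paralog groups 1 to 8 in each library, for HoxC and for HoxA, with 95% exact binomial intervals (counting error only). The HoxC shares are 15.4% to 47.4% in WT and 52.2% to 70.0% in *Jag2sm* libraries, and the HoxA shares overlap.

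In HoxA none of the 5 tested genes passed. *Hoxa10* (chr6:52208164-52217834, minus strand) was at 69.2, 53.0 and 87.2 CPM in WT and at 55.1, 66.3, 64.1 and 59.5 CPM in *Jag2sm* libraries, all inside the WT range, with a log2 fold change of -0.17 ± 0.22 (edgeR adjusted p = 0.723). *Hoxa9*, which is known to be induced in aged MuSCs, was at 23.1, 25.9 and 45.5 CPM in WT and at 53.7, 41.5, 41.4 and 41.6 CPM in *Jag2sm* libraries, and 2 WT libraries lay below the 4 *Jag2sm* libraries (log2 fold change 0.40 ± 0.27, adjusted p = 0.459). *Hoxa7* was at 28.8, 27.8 and 35.1 CPM in WT and at 42.4, 29.0, 23.2 and 30.2 CPM in *Jag2sm* libraries. The fold change of *Hoxa7* was -0.02 ± 0.27 on the log2 scale, and 20.3% of its exon bases also lie in the noncoding gene *Hoxaas3*.

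*Hoxa5*, a gene of the neck and upper thorax, was at 5.76, 10.3 and 11.4 CPM in WT and at 26.9, 22.1, 3.45 and 17.1 CPM in *Jag2sm* libraries. Replicate 3 of *Jag2sm* was the lowest of the 7 libraries and the other 3 the highest, with a log2 fold change of 0.66 ± 0.61 (edgeR adjusted p = 0.605). *Hoxa11*, which patterns the lower leg and forearm, was at 0, 13.6 and 30.3 CPM in WT and at 25.5, 8.98, 25.6 and 9.78 CPM in *Jag2sm* libraries, with a log2 fold change of -0.11 ± 0.56. Opposite its exons lies *Hoxa11os*, over 43.6% of their bases, and without a stated strand setting the reads of the pair cannot be told apart. The other HoxA genes named here were sparse. *Hoxa3* had 1, 2 and 1 counts in WT and 4, 6, 5 and 1 in *Jag2sm* libraries. *Hoxa4* had 1, 3 and 1 counts in WT and 0, 1, 3 and 2 in *Jag2sm* libraries, and *Hoxa6* had 1, 3 and 1 and 2, 2, 6 and 4, so no difference was detectable for them at this depth.

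*Hoxb4*, known for the expansion of blood stem cells, was the only tested HoxB gene, at 5.76, 14.9 and 9.48 CPM in WT and at 2.83, 14.5, 0.986 and 22 CPM in *Jag2sm* libraries. The *Jag2sm* libraries held both the highest and the lowest value, and the log2 fold change was -0.20 ± 0.78 (edgeR adjusted p = 0.935). *Hoxb2* had 0, 2 and 3 counts in WT and 1, 5, 3 and 5 in *Jag2sm* libraries, and *Hoxb3* had 0, 4 and 1 and 0, 3, 1 and 8. *Hoxb6* had 0, 7 and 2 counts in WT and 1, 0, 0 and 0 in *Jag2sm* libraries, a pooled log2 ratio of -4.13 with a 95% interval of -9.59 to -1.28 for counting error only. *Hoxb7* had 0, 5 and 3 counts in WT and 7, 0, 0 and 2 in *Jag2sm* libraries.

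In HoxD, whose posterior genes pattern the digits, the tested gene was *Hoxd8*, at 28.8, 15.5 and 7.59 CPM in WT and at 0, 6.22, 0.493 and 13.9 CPM in *Jag2sm* libraries. *Jag2sm* replicates 1, 2 and 3, with 0, 9 and 1 counts, lay below all WT libraries and replicate 4 inside their range, and the log2 fold change of -1.41 ± 0.86 did not pass (edgeR adjusted p = 0.401). It was -0.86 without *Jag2sm* replicate 3, -2.51 with the replicate block and -2.31 with limma-voom, and passed in none of these. Pooled by genotype its 37 WT and 27 *Jag2sm* counts gave a log2 ratio of -1.42, with a counting interval of -2.19 to -0.66. Its exons overlap the antisense gene *Hoxd3os1* over 15% of their bases. *Hoxd9* had 3, 5 and 0 counts in WT and 2, 8, 0 and 5 in *Jag2sm* libraries.

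Among 12 Hox cofactors, of which 10 were tested, *Pknox2*, a TALE homeobox partner, was the only one called, beside 6.26% of all tested genes. Of all tested genes 4.84% were called lower and 12.2% were lower without overlap. *Pknox2* passed the filter on low counts through the WT libraries, where it is high, so its call is not read against these shares. It fell in *Jag2sm* MuSCs without overlap, from 11.5, 26.5 and 42.7 CPM in WT to 0, 7.60, 7.88 and 10.6 CPM in *Jag2sm* libraries. The log2 fold change was -2.08 ± 0.53 (edgeR adjusted p = 0.0423, exact permutation p = 0.0571, two-sided). This call was lost with limma-voom, with library size alone, and without WT replicate 2 or 3 or *Jag2sm* replicate 2 or 3 (adjusted p = 0.0509 to 0.261). The acetyltransferase genes *Crebbp*, with a mean of 247 ± 30.3 CPM in WT and 218 ± 42.6 CPM in *Jag2sm* MuSCs, and *Ep300*, with 99.2 ± 34.1 and 91.4 ± 22.7 CPM, had log2 fold changes of -0.19 ± 0.22 and 0.00 ± 0.29. The median over the 10 tested cofactors was 0.08.

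Of 23 transcription factors of limb and axial patterning, 6 were tested and none was called, beside 6.26% of all tested genes. The highest, *Prrx1* and *Prrx2*, which mark limb mesenchyme, had log2 fold changes of 0.36 ± 0.24 and -0.13 ± 0.29. Named after its values were seen, *Tbx4*, the T-box gene of the hind limb, had 5, 16 and 17 counts in WT and 8, 15, 22 and 8 in *Jag2sm* libraries. The forelimb gene *Tbx5* had 1 count in each genotype and the hind limb gene *Pitx1* had 0 in all libraries. Also named after its values were seen, *Gli3*, a HEDGEHOG effector of the limb bud, did not overlap between genotypes (17.3, 22 and 45.5 CPM in WT, 62.2, 60.8, 66.0 and 60.3 CPM in *Jag2sm* libraries) but missed the threshold (log2 fold change 1.02 ± 0.29, edgeR adjusted p = 0.0678). Of all tested genes 10.3% were higher without overlap.

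Polycomb and Trithorax proteins keep Hox genes silent or active. Of their 40 listed genes 36 were tested and none was called in edgeR, beside 6.26% of all tested genes. Their log2 fold changes ran from -0.69 to 0.78, with a median of 0.07. The highest, *Rbbp4* and *Rbbp7*, had log2 fold changes of -0.12 ± 0.22 and 0.16 ± 0.33. Of 78 annotated noncoding genes in or near the clusters, 60 were listed in the files, 38 of them with 0 counts. *Hoxa11os* was the only one tested, at 11.5, 7.76 and 9.48 CPM in WT and at 11.3, 10.4, 16.3 and 14.7 CPM in *Jag2sm* libraries (log2 fold change 0.59 ± 0.35, edgeR adjusted p = 0.394). *Gm15050*, in HoxA, had 0, 10 and 4 counts in WT and 2, 12, 8 and 8 in *Jag2sm* libraries. *Hotair*, which lies between *Hoxc11* and *Hoxc12* and was named after its values were seen, had 4 counts in WT and 8 in *Jag2sm* libraries.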

How the data were processed

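Sorted MuSCs from hind limb muscles gave 3 WT and 4 *Jag2sm* direct cDNA libraries, run in pools on 2 PromethION flow cells. The authors called bases with dorado, aligned reads to GRCm39 with minimap2 2.17, counted them per gene with htseq and deposited the counts without normalization; annotation release, htseq version and strand setting are not given in the sources used here. The authors' table of their DESeq2 comparison (fold changes and p-values) was not used. Summary rows (no feature, ambiguous, not aligned and others, 5 in all) were left out. Of aligned reads, 45.1% lay on no gene in WT replicate 1 and 20.8% to 25.7% in the other libraries.

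Symbols, coordinates and exon lengths came from GENCODE release M39, in which 56017 of 56748 identifiers were found, 31625 with the same version. The exons of 19 Hox genes overlap those of another listed gene, 9 on the same strand. Counts were tested in R 4.3.3 with edgeR 4.0.16 (filterByExpr, minimum count 10 and total 15; TMM; glmQLFit and glmQLFTest without covariates; Benjamini-Hochberg adjusted p under 0.05), after the step was tested on simulated data. The SE is the log2 fold change over the root of F. Log2 CPM in permutation tests and within batches used a prior count of 2. Permutation tests were exact and two-sided over 35 arrangements. Binomial intervals (exact, Clopper-Pearson) are at 95% and a count of 0 was given a floor of 3 counts; both cover counting error only. Alternatives were DESeq2 1.42.0, limma-voom (limma 3.58.1), other scalings, other filters, a replicate block and leaving out libraries.

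The labels give each library a batch that equals its replicate number, which pairs WT and *Jag2sm* replicates 1 to 3; deviations from the genotype means correlated at 0.0740, 0.0144 and 0.0539 across tested genes. The Hox genes and all lists were chosen with earlier results of these data known. Hox genes with at least 10 counts are named with every library's value and the others with their counts, except for an item that is not reported here. In each further list called genes are named, and with fewer than 2 called also the highest uncalled genes, up to 2. *Jag2* is named as the gene of the mutant allele.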

Additional observations from a re-analysis of the deposited data

Results flagged for a closer look

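Among 28 Hox genes and cluster sums looked at in the 4 *Jag2sm* libraries, 4 held 1 library set apart from the others by Dixon's 95% limit on its gap to the next. For continuous, normally spread values chance passes this limit in about 1 in 20. That rate does not hold for sparse counts, so no excess is read from these 4. *Hoxc10* stood at 21.7 CPM in *Jag2sm* replicate 3, against 3.26 to 4.24 CPM in the other 3. *Hoxa9* stood at 53.7 CPM in *Jag2sm* replicate 1, against 41.4 to 41.6 CPM in the other 3. *Hoxb7* stood at 9.90 CPM in *Jag2sm* replicate 1, from 7 counts, against 0 to 1.63 CPM. *Hoxb6* stood at 1.41 CPM in the same library, from 1 count, against 0 in the others. Any gene with 1 count in 1 library and 0 in the others passes this limit.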

How the results depend on the processing

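Of 370 values recomputed, 315 kept their direction and their side of the threshold, or moved by less than their spread. Over all tested genes 594 were called, 1248 with no filter on low counts, and 251 to 616 with 1 library left out (251 without *Jag2sm* replicate 2, 341 and 343 without WT replicates 3 and 2). Scaling by library size alone moved the share of lower calls from 77.3% to 61.4%. The number of Hox genes called higher was 1, but 0 with limma-voom, 2 with no filter, and 0 to 2 with 1 library left out. Lists behaved alike: cofactors gave 1 call, 0 with limma-voom and library size alone and 0 to 1 without 1 library; limb factors gave 0, 1 with limma-voom, library size alone and no filter and 0 to 1 without 1 library; Polycomb and Trithorax gave 0, and 1 with library size alone. The median log2 fold change of tested Hox genes was -0.02, and 0.001 to 0.67 without 1 library, the highest without WT replicate 3. The cluster log2 ratios moved by less than their spread, for HoxC 0.59 to 1.10 and for HoxD -2.20 to -0.70 without 1 library.

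Signs turned for genes near 0 that were never called. With DESeq2 *Hoxa7* was at 0.015 and *Hoxa11* at 0.062, and with library size alone at 0.14 and 0.066. Without 1 library *Hoxa7* ranged from -0.17 to 0.11, *Hoxa11* from -0.47 to 0.65, *Hoxa10* from -0.38 to 0.07, *Hoxb4* from -0.90 to 0.27, and *Hoxc11* from -1.04 to 0.32. With the replicate block and limma-voom *Hoxb4* was at -0.96 and -1.23 and *Hoxa5* at 0.33 and 0.11, both not called. The cause was not tested. The replicate block changed no call of a Hox gene or of *Pknox2*, and of the tested marker genes it ended the calls of *Des* and *Mymx* (*Hoxc4* 2.15, adjusted p = 0.0134 in edgeR; Hox genes called higher 1; all genes 565). Leaving out both libraries of batch 1 was chosen after seeing the data; it gave 507 calls, and 1 Hox gene, *Hoxc6*, in place of *Hoxc4*. Depth limits all of this: in WT replicate 1 a count of 0 allows up to 17.3 CPM.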
